A study of Caenorhabditis elegans with 2 samples.

Results

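Translation initiation and elongation factors are the proteins that load ribosomes onto mRNA and move them along it. Their genes were taken here as the protein-coding genes of the WBcel235 annotation named eif-, ife-, ifg- or eef- followed by a digit, plus ifet-1, which gave 38 of the 19973 protein-coding genes on the 6 nuclear chromosomes of Caenorhabditis elegans. Binding of LSY-2, a zinc finger transcription factor, was measured by chromatin immunoprecipitation and sequencing in whole L1 larvae, pooled male and female, that had been starved after bleaching. All worms were of strain OP367, with the genotype unc-119(tm4063) III and the insertion wgIs367, and LSY-2 carried an eGFP tag. The single group held 2 biological replicates, and there was no second condition. The labels name lsy-2 as the antibody target and describe the tagged protein, without the promoter that drives it. Whole larvae do not show in which cells a site was bound. Nothing in the labels says that the replicates came from separate cultures.

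In initiation, eIF4E binds the mRNA cap, eIF4G bridges it to the small ribosomal subunit, eIF3 holds that subunit, and eIF2 brings the initiator tRNA and is recharged by eIF2B. In elongation, eEF1A delivers each aminoacyl-tRNA and is recharged by the eEF1B exchange factor, and eEF2 moves the ribosome on by a codon. In this worm many transcripts begin with a spliced leader, so the annotated 5′ end can lie downstream of where transcription starts, and many genes lie in operons that are transcribed from the promoter of their first gene.

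LSY-2 summits lay at most of these genes. A gene was counted when a summit of the authors' thresholded list of 6850 peaks fell in a window around its annotated 5′ end that reached 1000 bp upstream and 200 bp downstream. By this count 31 of the 38 factor genes, or 81.6%, had a summit, where 21.1% of all protein-coding genes did. The share was 25 of 32 among the initiation genes and 6 of 6 among the elongation genes. Of the ribosomal protein genes 72 of 78 had a summit, and of the aminoacyl-tRNA synthetase genes 22 of 32. No test was run on these shares, since the members were chosen with results of these data known.

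**Figure D1:**
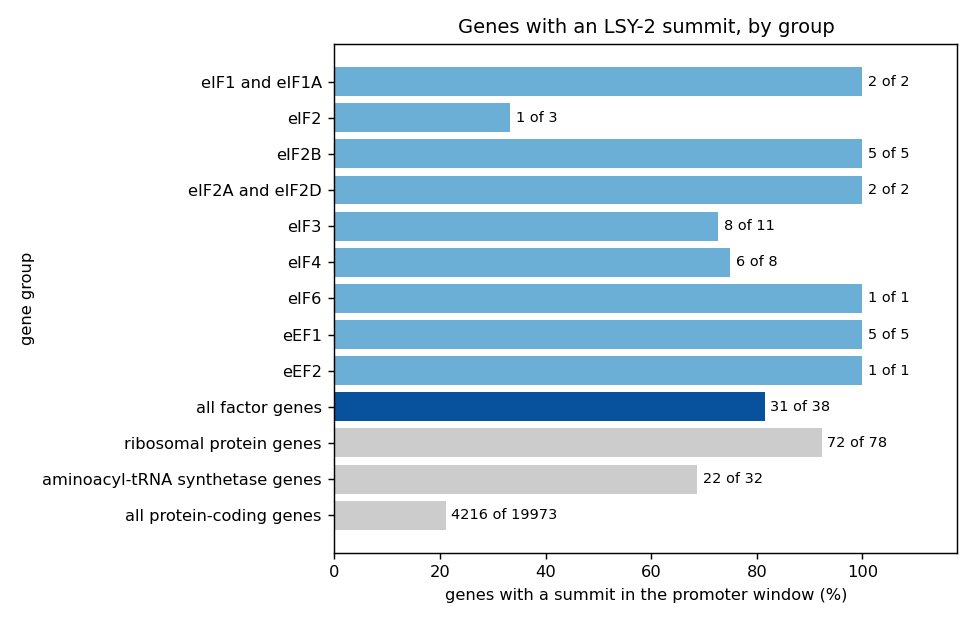
Share of genes with an LSY-2 summit in the promoter window, in percent, for each kind of factor, for all 38 factor genes and for 3 comparison groups (grey). Each bar starts at 0 and carries its counts. The factor genes reach 81.6% and all protein-coding genes 21.1%.

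The signal at the factor genes was also higher than at a typical gene. Signal is the authors' value per peak, whose scaling is not stated, and each gene was given its strongest summit. The median was 950.0 over the 31 factor genes with a summit and 282.5 over all 4216 genes with one. Among ribosomal protein genes it was 2286, and among aminoacyl-tRNA synthetase genes 250.6. Of the 31 genes, 17 ranked within the strongest 685 of the 6850 peaks, or 54.8%, against 19.7% of all genes with a summit. The values ran from 77.0 at eif-4A3 to 18382 at ifet-1.

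The strongest 7 summits stood above the others. They belonged to ifet-1, eef-1A.1, eef-2, eif-3.J, eif-3.H, ife-3 and eif-3.I, whose signals ran from 4908 to 18382, and the next, eef-1G, had 1652. All 7 held the 6-base word ACCGTA, read on either strand, within 50 bp of the summit. Of the other 24 summits only those of eif-2A and eif-3.G held it. The word was chosen after seeing the data, as the word with the largest difference in share between windows and flanks 300 bp away at the 300 strongest promoter summits that belong to no factor gene. The windows that follow show it at 5 of the 9 summits that hold it, as the WBcel235 genome of RefSeq gives them. Each has the summit in its middle and is written 5′ to 3′ on the strand of the named gene, with the word in capitals, as ACCGTA or as its reverse complement TACGGT.
ifet-1, chrIII:4475605-4475705, minus strand: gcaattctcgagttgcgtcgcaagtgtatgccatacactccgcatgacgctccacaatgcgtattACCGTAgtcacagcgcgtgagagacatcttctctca
eef-1A.1, chrIII:6972054-6972154, minus strand: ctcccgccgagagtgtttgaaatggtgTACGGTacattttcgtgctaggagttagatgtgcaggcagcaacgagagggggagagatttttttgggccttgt
ife-3, chrV:8211-8311, minus strand: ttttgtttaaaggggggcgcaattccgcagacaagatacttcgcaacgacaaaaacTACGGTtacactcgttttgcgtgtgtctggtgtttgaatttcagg
eif-2A, chrII:10416619-10416719, plus strand: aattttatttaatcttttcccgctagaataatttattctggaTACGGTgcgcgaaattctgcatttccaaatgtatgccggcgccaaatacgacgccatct
eif-3.G, chrII:8442371-8442471, plus strand: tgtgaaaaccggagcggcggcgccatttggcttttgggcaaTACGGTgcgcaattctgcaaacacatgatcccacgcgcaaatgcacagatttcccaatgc

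The word lay close to the summit at these genes, from 23 bp before it to 15 bp after it over all 9, in the direction of the gene. It read TACGGT along the gene's strand at 7 of them and ACCGTA at ifet-1 and eef-2. The next 3 windows come from genes with a signal of at least 1000 that lack the word, and carry no capitals.
eef-1G, chrV:10965633-10965733, plus strand: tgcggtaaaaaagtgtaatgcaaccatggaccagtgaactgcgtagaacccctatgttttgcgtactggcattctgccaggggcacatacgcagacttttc
eif-3.B, chrII:14795090-14795190, plus strand: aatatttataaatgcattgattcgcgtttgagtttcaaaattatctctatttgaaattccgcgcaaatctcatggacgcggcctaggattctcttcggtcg
eef-1A.2, chrX:7823250-7823350, plus strand: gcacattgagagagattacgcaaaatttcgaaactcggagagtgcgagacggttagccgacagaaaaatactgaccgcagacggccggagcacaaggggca

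At promoter summits of other genes the word was frequent at the top of the signal range, from which it had been chosen. It was found in 170 of the 300 summits from which it was chosen, or 56.7%, and in 1.67% of their flanks. Outside those 300 it was found in 125 of 3007 promoter summits, or 4.16%. Sorting the 3307 promoter summits of other genes into 20 groups by signal gave 84.9% in the strongest group, 19.9% in the second and 6.02% in the third. The remaining 17 groups ran from 0.606% to 6.67%. The strongest group lay wholly within the 300 summits of the choice, as did 134 of the 166 summits of the second, so the choice of the word bears on both shares. The factor gene summits took no part in the choice. Of these the word was found at 7 of 7 with signals of at least 4000, a limit set after the gap between eif-3.I and eef-1G was seen, 2 of 8 from 1000 to 4000 and 0 of 16 below 1000. The other promoter summits gave 98 of 109, 74 of 211 and 123 of 2987 in the same ranges, with all 109 among the summits of the choice. None of the 62 flanks of the factor gene summits held it, and it was found in 3.19% of windows of the same length centred 200 bp upstream of all protein-coding 5′ ends. A match describes the sequence and does not show what binds there.

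**Figure D2:**
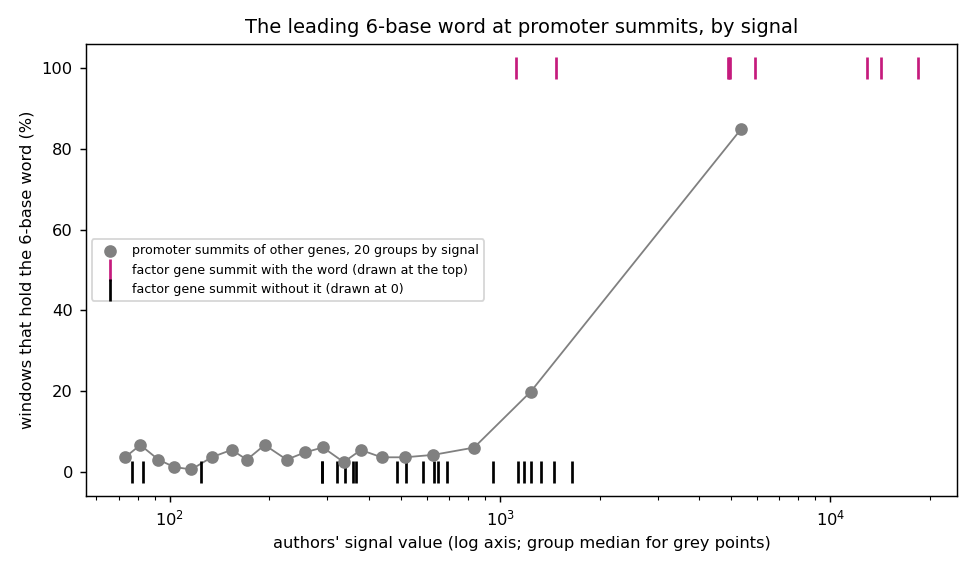
Share of promoter summits that hold the 6-base word within 50 bp, in percent, against the authors' signal on a log axis. Grey points are the 20 groups of 3307 summits of other genes at their median signal, and ticks are the 31 factor genes, drawn at the top with the word and at 0 without it. The share is 84.9% in the strongest group, whose summits were among those that chose the word, and the 7 factor genes of highest signal all hold it.

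The search on both strands also covered 4 other words. GAGAGA, a repeat common in worm promoters, was found at 6 of the 31 summits, or 19.4%, and at 23.0% of the other promoter summits. CGCCCC was found at 2 of 31, and at 4.23% of the others. GCGCGC was at 1 of 31, against 8.29%. TTTCAG, the end of the usual splice acceptor, was at 1 of 31, that of ife-3, against 6.68%. With 100 bp on each side of the summit it was at 8 of 31, or 25.8%, against 21.2%. Windows centred 200 bp upstream of all protein-coding 5′ ends held GAGAGA in 7.47%, CGCCCC in 1.31%, GCGCGC in 1.39% and TTTCAG in 16.9%. The 62 flanks of the factor gene summits held TTTCAG in 27.4%, GAGAGA in 3.23%, and neither CGCCCC nor GCGCGC. The windows had a median GC content of 46.5%, and those of other promoter summits 44.6%.

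The genes grouped here under eIF4, namely the ife genes, ifg-1, ifet-1 and eif-4A3, covered the widest range. Its ends were set by ifet-1 and eif-4A3. ifet-1 (WBGene00004132), the worm homolog of the eIF4E transporter, which represses translation by binding eIF4E, had a signal of 18382, with 8186 in replicate 1 and 10229 in replicate 2. Its peak spanned 4475385 to 4475933 on chromosome III in ce11 and ranked 5 in the list. The summit lay at −505 bp from the ifet-1 5′ end and at −263 bp from that of rps-1, a small ribosomal subunit protein gene on the opposite strand, so it cannot be given to either gene alone.

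The 5 eIF4E genes, ife-1 to ife-5, did not share a level. ife-3 (WBGene00002061), which encodes the isoform most like eIF4E of other animals, had a signal of 4913, with 2555 and 2379 in the replicates. ife-2 had 338.2, with 160.3 and 180.8. ife-4 had 82.8, with 34.3 and 42.4, while ife-1 and ife-5 had no summit. ife-3 was 14.5 times ife-2, and 15.9 and 13.2 times in the replicates, far beyond the 1.44-fold that 1 SD of the replicate difference comes to over all peaks. The ife-3 summit, at −433 bp between 8014 and 8524 on chromosome V, lay in no other gene's window. ifg-1, the eIF4G gene, had 365.5, with 170.2 and 192.7, at −629 bp and only 23 bp downstream of the 5′ end of M110.3, the nearer gene. eif-4A3, which encodes the helicase of the exon junction complex, had the lowest value of all, 77.0, with 31.5 and 42.5. Its summit lay at −463 bp, and at 4 bp downstream of the 5′ end of vps-20, the nearer gene.

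The eIF3 subunit genes named eif-3 had summits in 8 of 11 cases, with a median signal of 1394. egl-45, for the eIF3 subunit A, is outside the naming rule and had 275.5. eif-3.J had 5893, with 3220 and 2684 in the replicates. eif-3.H had 4949, with 2557 and 2404, and eif-3.I had 4908, with 2490 and 2434. These 3 were far above the other genes named eif-3, and eif-3.H and eif-3.I differed from each other by less than the replicates did. Then came eif-3.C at 1456 (826.6 and 633.2), eif-3.B at 1332 (683.6 and 650.4), eif-3.E at 1180.0 (567.3 and 626.6) and eif-3.G at 1117 (559.8 and 566.9). Neighbours in this order of pooled signal, from eif-3.C to eif-3.G, lay within 1.17-fold, 1 SD of the replicate difference at peaks with a signal of at least 1000. Among the genes named eif-3 with a summit, eif-3.D was lowest at 518.6 (244.1 and 270.6). eif-3.F, eif-3.K and eif-3.L had none.

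The 3 strongest eIF3 summits differed in where they lay. That of eif-3.J was at −945 bp, near the 3′ end of slc-25A46, the gene upstream on the same strand, and no other promoter window held it. That of eif-3.H, at −254 bp, lay nearer to the 5′ end of C41D11.3, at −116 bp. That of eif-3.I, at −215 bp, was shared with abtm-1 at −255 bp. The 3 genes are on chromosome I, at 13435489 to 13437963, 4444719 to 4446613 and 2485861 to 2489787 in that order.

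Within the window used, eIF2 and its exchange factor differed in how many of their genes had a summit. All 5 eIF2B genes had one, with signals of 950.0 at eif-2Balpha, 649.8 at eif-2Bbeta, 358.6 at eif-2Bgamma, 289.4 at eif-2Bdelta and 288.6 at eif-2Bepsilon. The replicate values were 534.5 and 407.2 at eif-2Balpha, the largest of the 5 in each replicate. eif-2Bepsilon had 115.1 in replicate 2 and no region that held the summit in replicate 1. Of the 3 eIF2 subunit genes, eif-2gamma, which encodes the GTP-binding subunit, had 583.8, with 280.8 and 297.1. eif-2alpha, which encodes the subunit that stress kinases phosphorylate, and eif-2beta had none. The counts depended on the window. One of 2000 bp upstream and 500 bp downstream gained eif-2alpha, and counting any transcript 5′ end gained eif-2beta. With the nearest 5′ end only, 3 of the 5 eIF2B genes and 1 of the 3 eIF2 genes had a summit, without eif-2Bbeta and eif-2Bepsilon. eif-2A, for a factor that can deliver the initiator tRNA in place of eIF2, had 1474, with 800.1 and 665.5. eif-2D had 124.4, with 74.6 and 47.2, the widest replicate difference of the 30 genes with both values.

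The remaining initiation genes lay below the median of the factor genes. eif-1 and eif-1.A, whose products keep the scanning ribosome open for start codon selection, had 321.9 (165.4 and 154.7) and 489.0 (244.0 and 242.5). eif-6, whose product keeps the large ribosomal subunit from joining early, had 688.8 (355.0 and 330.4). It was shared with the proteasome subunit gene pbs-2, at nearly equal distances of −328 and −338 bp.

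Every elongation factor gene named eef had a summit in its window. eef-1A.1 (WBGene00001168), the main eEF1A gene, had a signal of 14269.7, with 7007 and 7311 in the replicates. eef-2 (WBGene00001167) had 12903, with 6090 and 6832. These values exceed that of every initiation gene but ifet-1. The eef-1A.1 peak on chromosome III ran from 6971825 to 6972370. Its summit lay at −392 bp and nearer to rfc-4, a replication factor C subunit gene, at −149 bp. The eef-2 peak spanned 9163249 to 9163808 on chromosome I, with its summit at −12 bp, nearer to eef-2 than to clsp-1 at −253 bp.

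The paralog eef-1A.2 had a far weaker peak. Its signal was 1137, with 503.1 and 634.3, so that eef-1A.1 was 12.6 times as high, and 13.9 and 11.5 times in the replicates. The eef-1A.2 summit, on the X chromosome at −354 bp, lay in no other promoter window. The genes of the exchange factor also lay far below eef-1A.1. eef-1G had 1652 (743.1 and 906.2), eef-1B.1 had 1242 (561.7 and 687.6) and eef-1B.2 had 629.7 (338.5 and 292.6). eef-1B.1 was 1.97 times eef-1B.2, and 1.66 and 2.35 times in the replicates.

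**Figure D3:**
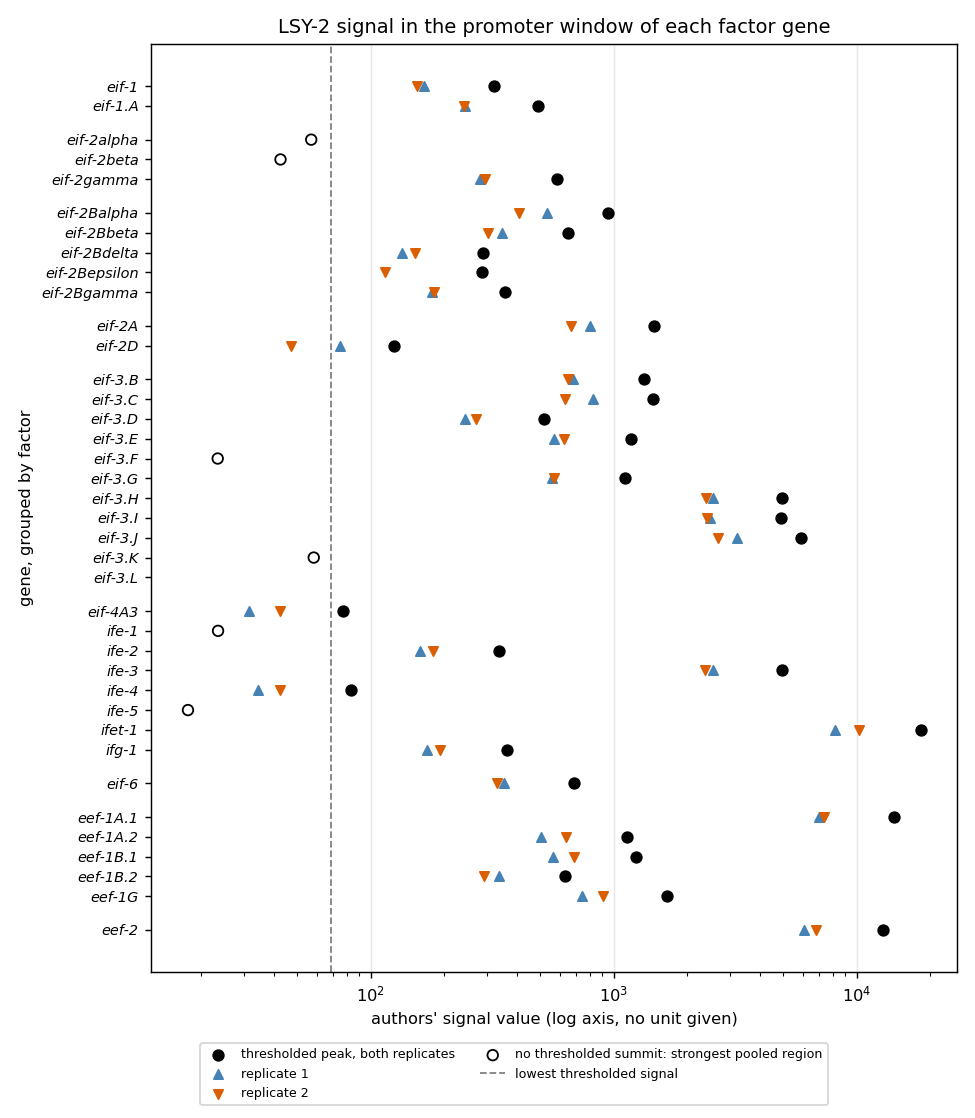
The authors' signal on a log axis for each of the 38 factor genes, grouped by factor. Black points are thresholded peaks, triangles the region that holds the same summit in each replicate's own list, where values are on a lower scale, and open circles the strongest pooled region of genes with no thresholded summit. ifet-1, eef-1A.1 and eef-2 stand highest, and eif-3.L has no region.

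The thresholded list keeps peaks on which the replicates concur, so their likeness at its peaks is partly set by that choice. Both had a region at 30 of the 31 summits, and Spearman's rho between their signals was 0.982 across these genes, which share both libraries and are no replicates of each other. Over all 6745 peaks with both values it was 0.883. On the log2 scale, replicate 2 over replicate 1 came to a median of 0.02 at the factor genes, with an SD of 0.25 and a range from −0.66 to 0.43. Replicate 2 was higher at 16 genes and lower at 14. Over all peaks the median was 0.20 and the SD 0.52. Over the 392 peaks with both values and a signal of at least 1000 they were 0.11 and 0.23, and 15 of the 31 factor genes had such a signal. Among the 6850 strongest regions of replicate 1, 29 of the 38 genes had a summit, where 21.2% of all protein-coding genes did. Replicate 2 gave 31, also with 21.2% of all genes. The genes that replicate 1 lacked were eif-2Bepsilon and eif-4A3.

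Most summits lay a short way upstream of the 5′ end. Their median position was −238 bp, with quartiles of −363.5 and −131 bp. Over all genes with a summit the median was −226 bp, with quartiles of −430.25 and −121 bp. Of the 31, 27 lay within 500 bp upstream. eef-1B.1 had its summit at 5 bp downstream, and eif-3.J, ifg-1 and ifet-1 lay farther than 500 bp away. The summit was outside protein-coding genes for 26 of the 31. Neither this count nor that of 27 was made over all genes with a summit, so neither is read as particular to the factor genes. eef-1B.1 and eif-2Bgamma each had a second, weaker summit, of 91.6 at −884 bp and of 168.6 at −955 bp.

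Many of these summits were shared with a neighbour. The window of at least 1 other gene held the summit for 18 of the 31 factor genes, or 58.1%, against 47.8% of all genes with a summit. In each of the 18 a partner lay on the opposite strand. Besides those named above, the pairs were eef-1B.1 with aco-2, eef-1G with ctf-4, eif-1 with vps-24, eif-1.A with H06H21.37, eif-2Balpha with mut-7, eif-2Bbeta with Y47H9C.8, eif-2Bepsilon with piga-1, eif-2D with ndub-5, eif-3.D with R08D7.4 and eif-3.E with B0511.17. The eif-1 summit also lay in the window of pigb-1, on the same strand as eif-1. Shared summits had a median signal of 819.4, from 77.0 to 18382, and the 13 unshared ones 1117, from 82.8 to 5893, so the 2 kinds overlapped. Over all genes with a summit the medians stood the other way, at 373.1 for shared and 205.1 for unshared summits. When a summit counted only for the gene with the nearest 5′ end, 22 of the 38 factor genes kept theirs, where 16% of all protein-coding genes had such a summit. The 9 that lost theirs included ifet-1, eef-1A.1 and eif-3.H, and the others were eif-1, eif-2Bbeta, eif-2Bepsilon, eif-3.D, eif-4A3 and ifg-1.

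**Figure D4:**
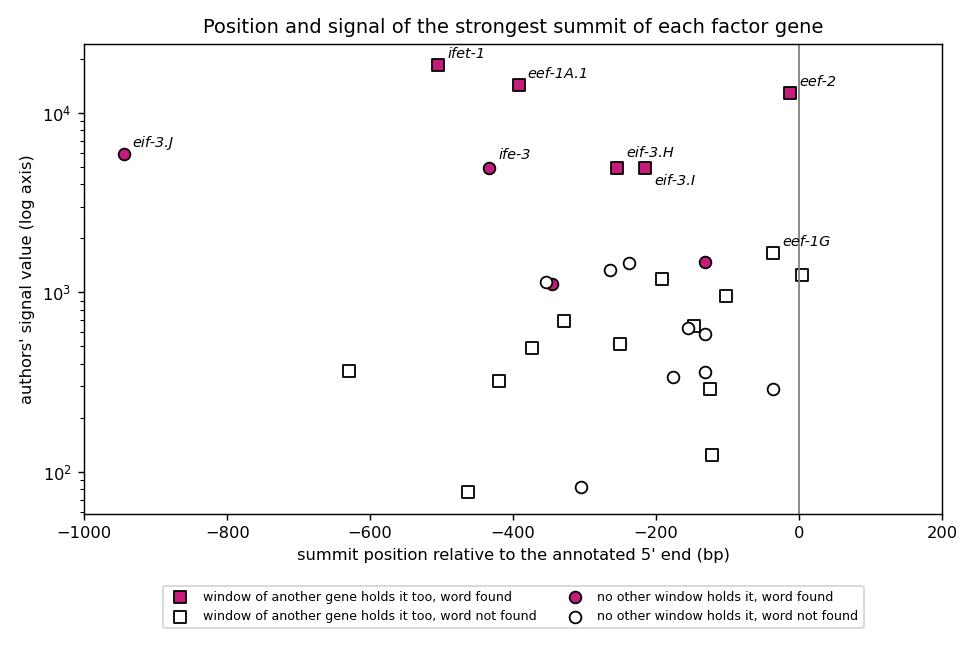
Position of the strongest summit of 31 factor genes relative to the annotated 5′ end, in bp with upstream negative, against the authors' signal on a log axis. Squares are summits that another gene's window also holds, circles those that none does, and filled symbols hold the 6-base word. The 7 highest symbols are all filled, and 27 of the 31 summits lie within 500 bp upstream.

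The 7 genes with no summit were eif-2alpha, eif-2beta, eif-3.F, eif-3.K, eif-3.L, ife-1 and ife-5. Of these 7, 6 had in the window a region of the authors' pooled list, which holds 30000 regions of peaks and background before thresholding, and eif-3.L had none. Such a region was found for 21% of all protein-coding genes without a thresholded summit. Its strongest signal was 58.4 at eif-3.K and 57.0 at eif-2alpha, just under the lowest thresholded value of 68.8, which eif-4A3 and ife-4 passed at 77.0 and 82.8. eif-2beta had 42.6, ife-1 23.6, eif-3.F 23.5 and ife-5 17.7. The median of this strongest value over the 3315 genes without a summit that had such a region was 27.0, so eif-3.K, eif-2alpha and eif-2beta lay above it, and ife-1, eif-3.F and ife-5 below.

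Several of these genes followed another gene closely. For 4 of the 7, eif-2alpha, eif-3.F, ife-1 and ife-5, a protein-coding gene on the same strand ended within 500 bp upstream or overlapped the 5′ end, as it did for 4 of the 31 with a summit. Over all protein-coding genes this held for 21.5% of those without a summit and for 14.9% of those with one. Going back through such neighbours to the first gene of the run reached a gene with a summit in all 4 cases, where 37.6% of the 3395 genes of this kind did. Whether these runs are transcribed as operons was not tested.

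The first genes of the 4 runs had summits of unequal strength. eif-2alpha lay 132 bp behind phb-1, a mitochondrial prohibitin gene. The summit in the phb-1 window had a signal of 6109, with 3082 and 3039 in the replicates. It lay at −461 bp from phb-1 and nearer to the 5′ end of Y37E3.8, so it cannot be given to phb-1 alone. eif-3.F followed wbp-2, eat-3 and egli-1, and the summit at egli-1 had 282.6, with 173.0 and 105.5. A weaker thresholded summit of 134.6 lay closer to eif-3.F, at −6508 bp, inside eat-3 but outside its promoter window. ife-1 overlapped dro-1, which followed nud-1, with 394.0 at nud-1, and 217.0 and 170.4 in the replicates. ife-5 lay 64 bp behind Y57A10A.29, with 128.2, and 68.4 and 56.6. The summits at phb-1, egli-1 and Y57A10A.29 also lay in the windows of Y37E3.8, rab-39 and tric-1B.2 in that order. Of the 3 genes without such a neighbour, eif-2beta had a thresholded summit of 404.1 inside the gene, at 737 bp from its 5′ end, and this summit lay in the window of another annotated transcript start of the gene.

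**Figure D5:**
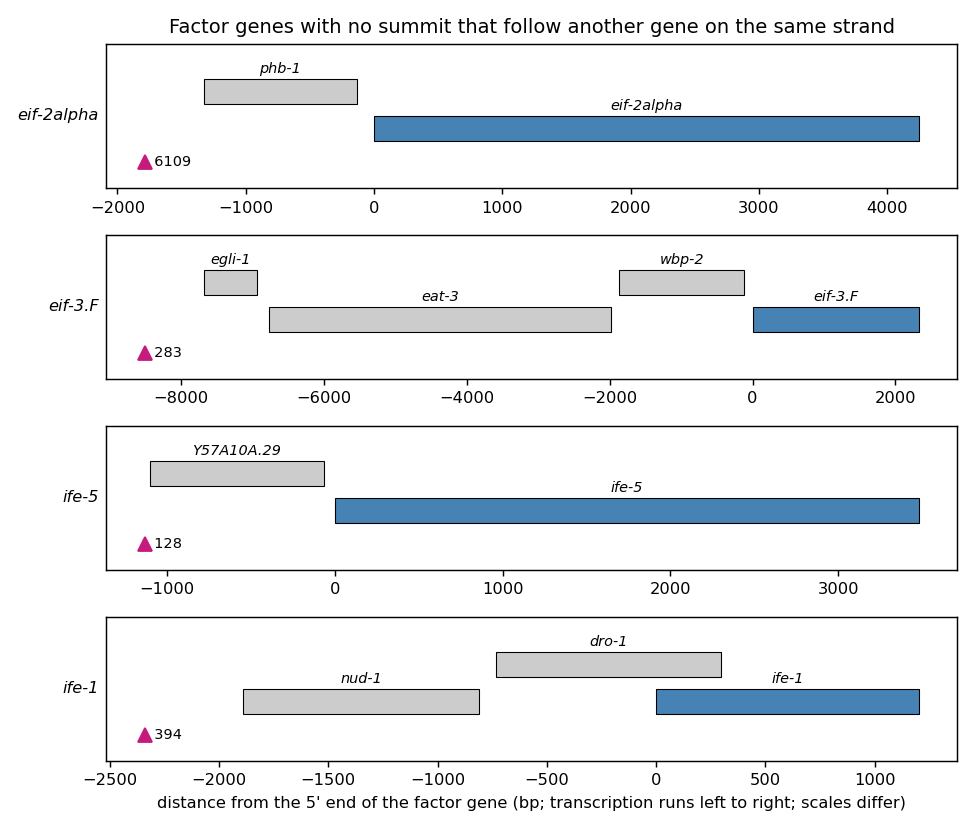
The 4 factor genes with no summit (blue) that follow another gene on the same strand, with the genes upstream in the run (grey), against distance from the factor gene's 5′ end in bp. The triangle marks the strongest summit at the first gene of the run, with its signal. The first gene of each run has a summit in its window, from 128 at Y57A10A.29 to 6109 at phb-1, the last lying nearer to Y37E3.8.

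Many other genes of translation had summits too. All 9 genes of initiation and eIF5A proteins that carry other names had one, with a median signal of 1178. iff-2, which encodes eIF5A, led with 3414 (1606 and 1814 in the replicates). pab-1, which encodes a poly(A)-binding protein, had 3234 (1459 and 1779) and shared its summit with rpl-30, a ribosomal protein gene. larp-1 had 1747 (799.7 and 950.7), and drr-2, the eIF4H homolog gene, had 1605 (782.0 and 844.1). inf-1 of the same list, the eIF4A gene, had 563.7 (282.2 and 283.7) and is singled out after its value was seen. Of the 8 measured genes of termination, recycling and rescue, 7 had a summit, with a median of 609.8, and hbs-1 had none. abcf-2, for an ABC protein of the ribosome-binding ABCF family, was the highest at 8788 (3837 and 4971), at −863 bp and shared with T27E9.2 and ant-1.1. abcf-1 and abcf-3 of the same family had 2560 (1314 and 1251) and 609.8 (287.7 and 323.0), and erfa-1, the release factor eRF1 gene, had 1062 (467.5 and 587.9).

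Of the 14 measured genes that modify or regulate the factors, 8 had a summit, with a median of 341.4. dph-3, needed to make the diphthamide of eEF2, had 4973 (2646 and 2340), far above dohh-1, for the enzyme that completes the hypusine of eIF5A, at 508.5 (248.3 and 261.6). These summits also lay in the windows of dcaf-1 and rpb-6 in that order. The other dph genes of the list lay far below dph-3: dph-2 had 230.4 (131.3 and 95.9), and dph-1 and dph-5 had no summit. gcn-1 and gcn-2, which act together to phosphorylate eIF2alpha when amino acids are short, had 471.4 (252.4 and 219.2) and 347.7 (177.0 and 170.0). The 6 without a summit were dhps-1, dph-1, dph-5, efk-1, for the eEF2 kinase, rsks-1, for the S6 kinase, and let-363, for TOR. Of the 5 measured mitochondrial translation factor genes 4 had one, with a median of 307.3. tufm-1, for mitochondrial EF-Tu, led with 3358 (1620 and 1749), and tsfm-1, for its exchange factor, had none. Over these 4 lists 28 of 36 measured genes had a summit, or 77.8%, with a median signal of 454.6. Of the 28 summits, 21 also lay in the window of another gene, where 47.8% of all genes with a summit shared theirs. Besides those described above as shared, the 21 included the summits of iff-2, larp-1, drr-2, inf-1, abcf-1, erfa-1, gcn-2 and dph-2. The factor genes egl-45 and iffb-1, which neither the naming rule nor these lists hold, were added after their values were seen. egl-45, for the eIF3 subunit A, had a signal of 275.5, and iffb-1, for eIF5B, had 157.9.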

How the data were processed

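Data were LSY-2 ChIP-seq peak lists from 2 biological replicates, with DNA fragments of 150 to 350 bp, per the labels. The README texts deposited by the authors state that each replicate's regions came from its alignments and a control, the pooled regions from both, and the thresholded list from an irreproducible discovery rate analysis of these. The sources used here do not give the aligner, the peak caller or the read depth, so no counting error is given. The signal and the summit offset, a distance in bp and the other value used, are the authors' own, as deposited, with scaling not stated. The ce11 lists were used, and their chromosome names and region ends lie within the WBcel235 genome. Genes came from Ensembl release 115. Coordinates are 1-based.

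A summit is start plus offset. Replicate values are from the replicate region that holds the summit. The 31 genes with a summit and the 7 without are all named. So are the neighbours that share a summit with them and the runs of those without one. From each comparison list up to 4 genes of strongest signal and all without a summit are named, with inf-1 and dph-2 besides. The members, lists and words were chosen with earlier results of these data known. The 4 fixed lists held 43 names, of which 36 matched, and etf-1, denr-1, selb-1, gfm-2, mtif-2, mtif-3 and mtrf-1 were not found by name. Gaps run between protein-coding genes of the same strand. Counts of genes per window, gaps and words were tested on simulated data. Python 3.11.15, numpy 2.4.6 and pandas 2.3.3 were used. Alternatives were other windows, replicates, gaps and word windows. No set test or chance test was run.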

Additional observations from a re-analysis of the deposited data

How the results depend on the processing

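The count of factor genes with a summit, 31, was 28 with a window of 500 bp upstream and 100 bp downstream (16.6% of all genes). This window lost eif-3.J, ifet-1 and ifg-1. With 2000 bp and 500 bp the count was 34 (27.1% of all genes), with eif-2alpha, eif-3.K and ife-5 gained. It was 28 among the stronger 3425 peaks (14.6% of all genes) and 22 with the nearest 5′ end only (16.0%). It was 32 both with any transcript 5′ end (22.8%) and over whole genes (25.6%). With either replicate alone it was 29 and 31, against 21.2% of all genes in each. The median signal then ran from 407.2 to 534.5, on the replicates' own lower scale. The nearest-gene count was 22 with either replicate. Genes with a same-strand neighbour ending within 500 bp upstream numbered 8, or 21.1%, close to the 20.2% of all protein-coding genes. There were 4 at 200 bp and 13 at 1000 bp, since a longer gap admits more genes, and no share over all genes is given for those gaps. Extending the word windows to 100 bp on each side raised TTTCAG from 1 to 8 summits (from 6.68% to 21.2% of other promoter summits). It left ACCGTA at 9 (from 8.92% to 11.0% of the others). Choosing the word from the 100 strongest summits gave ACCGTA again, and from the 1000 strongest ACGCGC, found at 11. No paired analysis was possible because there was 1 group. Read depth is unknown, and 2 replicates limit the precision.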

Other observations

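A second word, ACGCGC, led among the 1000 strongest promoter summits of other genes, where 22.2% of windows and 1.3% of flanks held it, and ACCGTA followed in place 3 with 20.3% and 2.20%. ACGCGC lay within 50 bp of 11 of the 31 factor gene summits, or 35.5%, and of 15.1% of all 3307 promoter summits of other genes. Among all 3307 promoter summits of other genes GAGAGA led, with 23.0% of windows and 5.90% of flanks. These values are descriptions of the sequence at the summits.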
